A study of Mus musculus with 12 samples.

Results

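Genes of glycolysis, glucose and lactate transport and the response to low oxygen were followed in leukocytes from the prostate of TRAMP mice that had received T cells, on Illumina BeadChip arrays. The set holds 33 genes listed by symbol for their role in these pathways, of which 30 had a probe under their symbol and 27 were measured, out of 11971 measured genes in all. A gene counted as measured when a probe had a detection p under 0.05 on at least 3 of the 12 arrays, and its brightest probe was used. No probe carried the symbols Hk2, Gpi1 or Eno1, so these were not analysed here. Slc16a1, Bnip3 and Ero1l (now Ero1a) had probes that were not well above background on any of the 12 arrays. The probe used for Slc16a3 was above background on 5 arrays, that of Ldhb on 4, and those of Pfkfb3 and Eno2 on 10 each, and the other 23 measured genes were above background on all 12.

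The samples were CD45+ cells, CD45 being the surface marker of leukocytes, taken from the prostate of C57Bl/6 (TRAMP) mice. TRAMP mice carry the SV40 T antigen under the prostate epithelial probasin promoter and develop prostate adenocarcinoma. All 4 groups had received an adoptive T cell transfer (ACT), and an untreated group was not analysed here. The groups were Tumor+Allo/Y (d28), taken 28 days after the combined transfer (samples 10, 11 and 12), and Tumor+Allo/Y (samples 7, 8 and 9), Tumor (samples 4, 5 and 6) and Allo/Y (samples 1, 2 and 3), taken 1 week after transfer, with 3 mice per group per the design text. The group names are those of the labels, which do not expand Allo/Y or say which T cells each name stands for. Values are given in that order of samples as log2 signal, background-corrected and quantile-normalized, and changes are log2 differences ± SE from a limma model with n = 3 arrays per group. A gene was called at a Benjamini-Hochberg adjusted p under 0.05 over the 11971 genes.

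Glycolysis turns glucose into pyruvate, and cells that run it fast reduce much of that pyruvate to lactate and export it. Activated T cells, inflammatory macrophages and neutrophils all rely on it. In low oxygen the prolyl hydroxylases no longer mark the subunit HIF-1α for destruction, and HIF-1 then binds short DNA elements with the core ACGTG or GCGTG and switches on glucose transporters, glycolytic enzymes, the angiogenic factor gene Vegfa and its own regulator Egln3. Several steps are shared by isozymes encoded by different genes, among them phosphofructokinase (Pfkl, Pfkm and Pfkp), aldolase (Aldoa and Aldoc) and lactate dehydrogenase (Ldha and Ldhb).

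Promoters were searched for these cores because HIF-1 acts through them. The 250 bases before the start site, from RefSeq (GRCm38.p6, first start listed per gene), were matched for 25 of the 27 measured genes. ACGTG stood on either strand in 12 of the 25 (48%) and in 16.6% of the 27025 promoters of the table. The other core, GCGTG, stood in 12 of 25 and in 28.2% of all. The promoters of the table were not matched to these genes for base composition. CACGTG, the E-box, contains ACGTG on both strands and stood in 3 of 25 and in 6.05% of all. Promoters of 4 genes named in the results below are shown, with capitals marking ACGTG on either strand. Pfkp changed most of the 27 genes against Allo/Y, Egln3 and Ankrd37 are HIF-1 targets, and Ldha makes lactate. In the same order they lie at chr13:6648772-6649021, minus strand, chr12:54203875-54204124, minus strand, chr8:45999851-46000100, minus strand, and chr7:46845554-46845803, plus strand.
Pfkp: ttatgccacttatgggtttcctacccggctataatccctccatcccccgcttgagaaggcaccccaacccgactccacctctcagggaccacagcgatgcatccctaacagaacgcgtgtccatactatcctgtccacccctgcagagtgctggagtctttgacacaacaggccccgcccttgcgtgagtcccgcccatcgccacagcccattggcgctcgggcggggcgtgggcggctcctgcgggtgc
Egln3: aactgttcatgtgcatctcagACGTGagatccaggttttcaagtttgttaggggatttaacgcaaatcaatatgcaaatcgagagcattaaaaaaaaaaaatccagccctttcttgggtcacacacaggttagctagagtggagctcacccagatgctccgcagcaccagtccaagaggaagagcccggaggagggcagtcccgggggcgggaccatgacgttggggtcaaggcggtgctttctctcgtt
Ankrd37: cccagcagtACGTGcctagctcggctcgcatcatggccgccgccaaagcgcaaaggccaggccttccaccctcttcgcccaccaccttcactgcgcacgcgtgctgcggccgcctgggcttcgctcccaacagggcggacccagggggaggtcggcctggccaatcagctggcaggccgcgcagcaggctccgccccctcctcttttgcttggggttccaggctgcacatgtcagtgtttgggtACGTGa
Ldha: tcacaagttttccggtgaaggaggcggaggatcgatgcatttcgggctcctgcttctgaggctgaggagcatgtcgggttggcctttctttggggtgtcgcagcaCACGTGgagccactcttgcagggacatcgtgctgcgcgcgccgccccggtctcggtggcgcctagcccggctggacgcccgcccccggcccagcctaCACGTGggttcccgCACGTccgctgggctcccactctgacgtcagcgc
The Pfkp window held no ACGTG and GCGTG at 3 places, the Egln3 window 1 ACGTG beginning 229 bases before the start site, and the Ankrd37 window ACGTG at 241 and 6 bases before it. The Ldha window held E-boxes and, nearer the start site, a further ACGTG on the opposite strand. These are matches of letters and a description of the windows. For Pfkp, Ankrd37 and Ldha the start site used lies within the span of the gene, so the window and its distances refer to an internal start.

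Of the 45281 probes, 18981 to 21718 passed the detection p on each array. Within groups the arrays correlated at 0.9811 or more at day 28 and at 0.9858 or more in Allo/Y. Tumor+Allo/Y sample 8 correlated at 0.9598 and 0.9543 with samples 7 and 9 of its group and at 0.9834 with Tumor sample 4, and Tumor sample 6 at 0.8994 and 0.9252 with samples 4 and 5 of its group and at 0.9754 with Tumor+Allo/Y sample 9. Ptprc, the gene of CD45, had 8.26, 7.78 and 8.42 in Tumor+Allo/Y (d28), 7.79, 7.36 and 8.24 in Tumor+Allo/Y, 6.65, 7.65 and 7.97 in Tumor, and 5.38, 5.37 and 5.67 in Allo/Y, and was above background on all 12 arrays. The mean log2 signal of 20 genes expressed in all leukocytes was 11.24 ± 0.16 in Tumor+Allo/Y (d28), 11.28 ± 0.24 in Tumor+Allo/Y, 11.15 ± 0.31 in Tumor and 9.18 ± 0.13 in Allo/Y (SD, n = 3 each), a difference from Allo/Y of 2.06, 2.10 and 1.98, and 1 of the 20 was at background in Allo/Y. The mean of 11 epithelial genes was 10.06 ± 0.29, 9.33 ± 0.70, 9.15 ± 1.61 and 11.31 ± 0.31 in the same order, highest in Allo/Y, where none of the 11 was at background, against 1 in each other group. Neutrophil genes (9 measured) averaged 8.88, 8.37 and 9.51 in Tumor+Allo/Y, 7.42, 7.96 and 9.58 in Tumor, and 7.75, 7.91 and 8.02 in Allo/Y, with 0 of the 9 at background in Tumor+Allo/Y, 2 in Tumor and 1 in Allo/Y. T cell genes (9 measured) were highest at day 28, at 11.42 ± 0.33, against 10.08 ± 0.56 in Tumor+Allo/Y at 1 week and 10.19 ± 0.53 in Tumor. They averaged 7.90 ± 0.08 in Allo/Y, where 1 of the 9 was at background. Monocyte and macrophage genes (9 measured) averaged 10.99 ± 0.25 at day 28, 11.59 ± 0.26 in Tumor+Allo/Y, 11.32 ± 0.58 in Tumor and 9.87 ± 0.23 in Allo/Y. In such mixed samples fewer cells of a type and less RNA per cell cannot be told apart, and the part of these differences in the results was not tested beyond the scaling to leukocyte genes described after them.

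**Figure D1:**
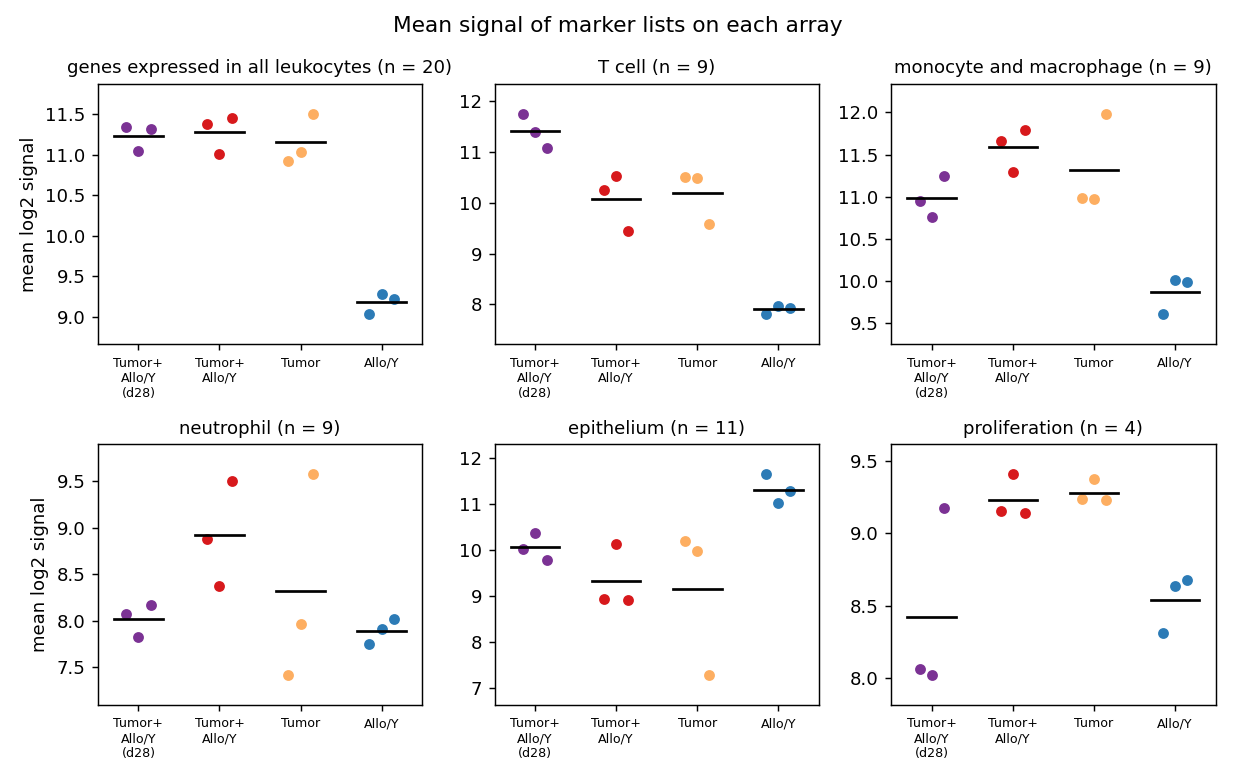
Mean log2 signal of 6 marker lists (vertical axes) on each of the 12 arrays (points), by group (horizontal axes), with black lines at the group means of 3 arrays. The leukocyte genes lie near 9.18 in Allo/Y and at 10.93 or more on every other array, and the epithelial genes are highest in Allo/Y.

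The combined transfer was set against Allo/Y alone at 1 week to ask what adding the Tumor transfer changed in the infiltrate. Of the 27 measured genes 17 rose, none fell and 10 did not pass, where 47.9% of all genes were called, 20.6% higher and 27.3% lower. The median change was 0.88 for the 27 genes and −0.04 for all genes. The groups did not overlap in 24 of the 27 and in 62.1% of all genes, the exceptions among the 27 being Pfkl, Aldoc and Eno2. Pfkp, the platelet-type phosphofructokinase, rose by 3.56 ± 0.40 (SE, adjusted p = 0.000155) or 11.8-fold, and Egln3, the prolyl hydroxylase PHD3, rose by 2.14 ± 0.41 (SE, adjusted p = 0.00224). The change of the other 25 genes was below that of the leukocyte genes, which stood 2.10 higher in Tumor+Allo/Y. The count of 17 stood beside 2467 higher and 3267 lower of all genes. It was 7 without Tumor+Allo/Y sample 7 (1779 and 2171 of all genes) and 9 without sample 9 (1911 and 2452). Without Allo/Y sample 2 it was 11 (1986 and 2594).

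**Figure D2:**
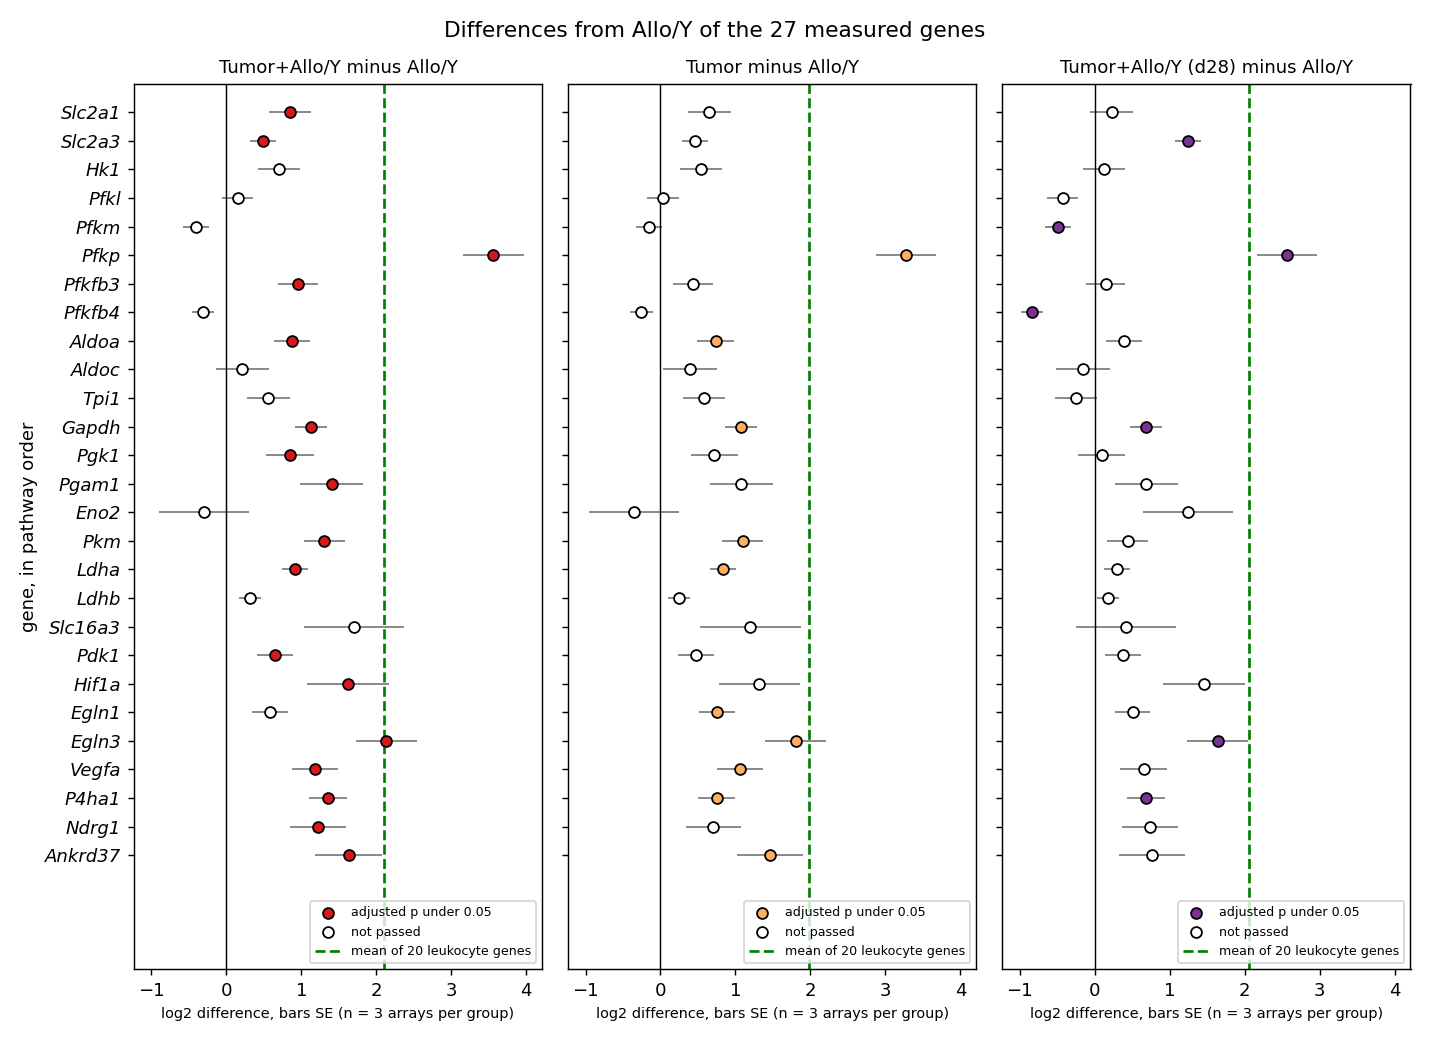
Log2 differences from Allo/Y (horizontal axes, bars SE, n = 3 arrays per group) of the 27 measured genes in pathway order, filled where the adjusted p was under 0.05. Green dashed lines mark the difference of the 20 leukocyte genes, which Pfkp exceeds in all 3 panels and Egln3 in the first.

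Both measured glucose transporter genes of the set rose in Tumor+Allo/Y against Allo/Y, where 20.6% of all genes were called higher. Among Slc2a genes outside the set, Slc2a6 (3.64 ± 0.39, adjusted p = 0.00012) and Slc2a9 (1.26 ± 0.34, adjusted p = 0.0118) rose. Slc2a8 fell (−0.50 ± 0.14, adjusted p = 0.0143). Slc2a1, which encodes GLUT1, had log2 signals of 11.31, 11.45 and 11.92 in Tumor+Allo/Y (d28), 12.35, 11.76 and 12.45 in Tumor+Allo/Y, 11.53, 11.82 and 12.61 in Tumor, and 11.41, 11.22 and 11.37 in Allo/Y. All 3 Tumor+Allo/Y arrays lay above all 3 Allo/Y arrays, and sample 8 was the lowest of them. The rise was 0.85 ± 0.28 (SE, adjusted p = 0.0308). Slc2a3, which encodes GLUT3, had 10.33, 10.18 and 9.98 in Tumor+Allo/Y (d28), 9.47, 9.52 and 9.25 in Tumor+Allo/Y, 9.28, 9.39 and 9.47 in Tumor, and 9.12, 8.54 and 9.11 in Allo/Y. Here day 28 stood above every 1 week array. Its rise in Tumor+Allo/Y against Allo/Y was 0.49 ± 0.17 (SE, adjusted p = 0.0399), and the adjusted p was 0.0625 after cyclic loess normalization and 0.0768 when these 2 groups alone were fitted. The call was also lost without Tumor+Allo/Y (d28) sample 11, Tumor+Allo/Y sample 7 or 8, Tumor sample 5 or Allo/Y sample 2 (adjusted p 0.0538 to 0.144). In Tumor+Allo/Y (d28) against Allo/Y the rise was 1.24 ± 0.17 (SE, adjusted p = 0.000377).

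In the upper steps of glycolysis, before the sugar is cleaved and at cleavage, 3 of 8 measured genes rose in Tumor+Allo/Y against Allo/Y. The other 5 did not pass, where 47.9% of all genes were called, 20.6% higher and 27.3% lower. The largest change among these 8 genes was that of a phosphofructokinase, the enzyme of the step that commits sugar to glycolysis. Outside the set, the hexokinase gene Hk3 rose more (4.50 ± 0.73, adjusted p = 0.00101). Pfkp had 10.61, 10.31 and 11.29 in Tumor+Allo/Y (d28), 12.02, 10.97 and 12.21 in Tumor+Allo/Y, 10.77, 11.56 and 12.00 in Tumor, and 7.80, 8.21 and 8.49 in Allo/Y. The lowest value outside Allo/Y, 10.31 at day 28, was above the highest in Allo/Y. A second Pfkp probe gave 3.77 in the same comparison, also called. Pfkl, the liver type, had 10.40, 10.61 and 10.68 in Tumor+Allo/Y (d28), 11.16, 10.76 and 11.51 in Tumor+Allo/Y, 10.73, 10.96 and 11.38 in Tumor, and 10.96, 11.08 and 10.93 in Allo/Y, and these ranges overlapped at 1 week, with a difference of 0.15 ± 0.21 (SE, adjusted p = 0.569). Pfkm, the muscle type, had 8.44, 8.76 and 8.54 in Tumor+Allo/Y (d28), 8.58, 8.55 and 8.86 in Tumor+Allo/Y, 8.87, 8.65 and 9.21 in Tumor, and 9.30, 8.90 and 8.98 in Allo/Y, a difference of −0.40 ± 0.18 (SE, adjusted p = 0.0818). It lay below Allo/Y on every Tumor+Allo/Y array without passing, and its other 2 probes gave −0.45 and 0.30.

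Aldoa, the main aldolase of most tissues, had 11.73, 11.68 and 11.87 in Tumor+Allo/Y (d28), 12.44, 11.77 and 12.53 in Tumor+Allo/Y, 11.83, 11.84 and 12.63 in Tumor, and 11.26, 11.46 and 11.38 in Allo/Y. It rose by 0.88 ± 0.24 (SE, adjusted p = 0.0136). Aldoc, its brain-enriched counterpart, gave 0.22 ± 0.35 (SE, adjusted p = 0.639) and overlapped between the groups. Pfkfb3 makes the activator of phosphofructokinase, a fructose bisphosphate. It had 6.44, 5.50 and 6.05 in Tumor+Allo/Y, against 5.10, 5.12 and 4.92 in Allo/Y, where it was near background, and rose by 0.95 ± 0.27 (SE, adjusted p = 0.0142). Its relative Pfkfb4 did not pass (−0.31 ± 0.15, adjusted p = 0.11). Hk1, a hexokinase, which traps glucose in the cell, gave 0.70 ± 0.28 (SE, adjusted p = 0.0611), without overlap between the groups.

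**Figure D3:**
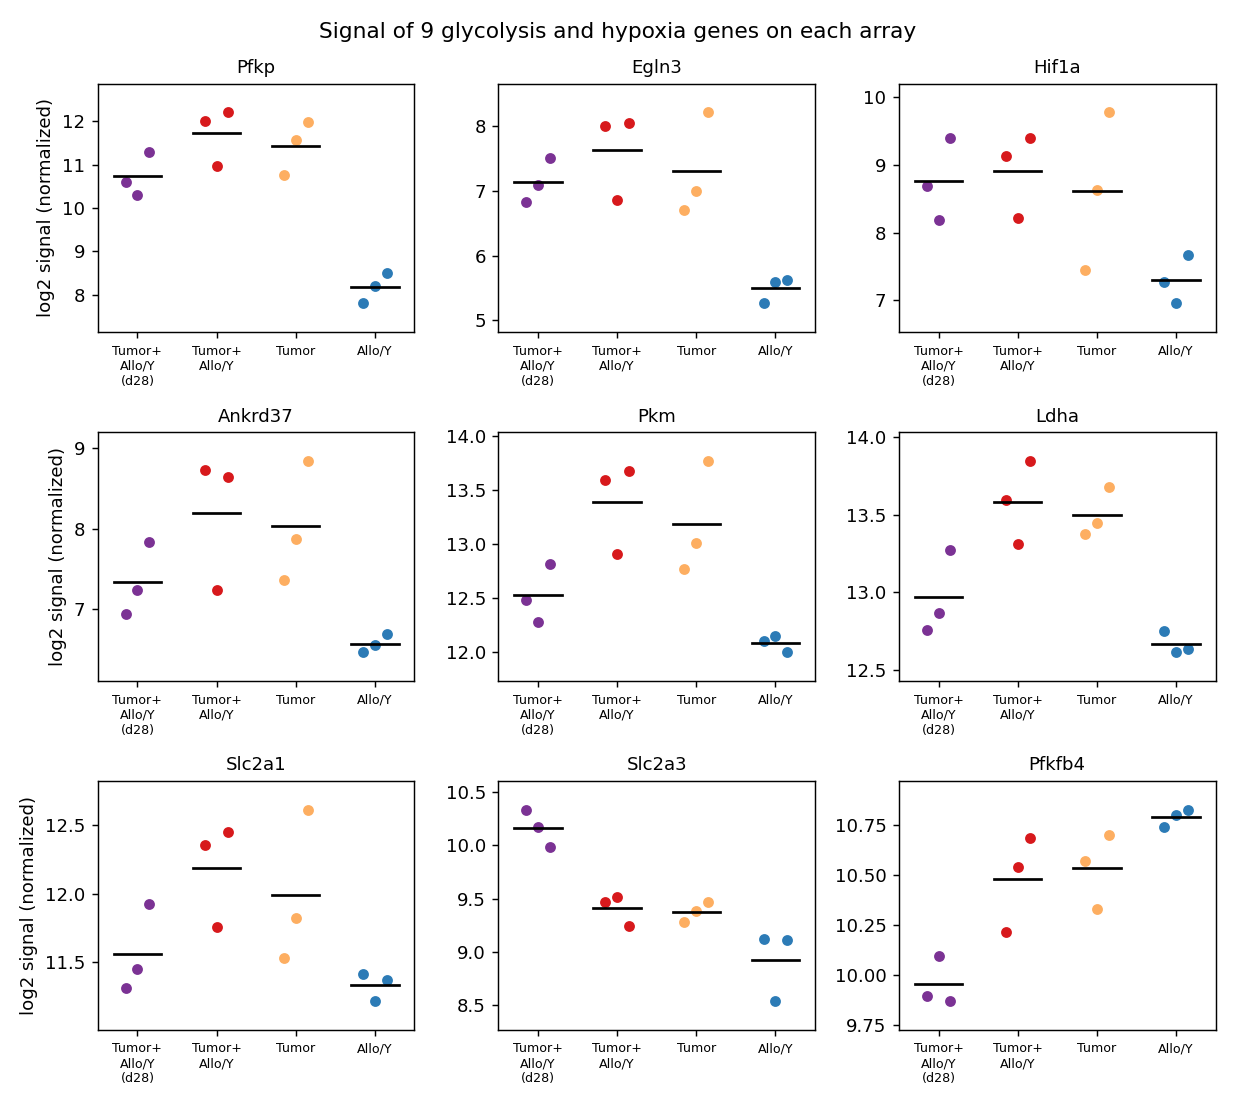
Normalized log2 signal (vertical axes) of 9 genes on each array (points), by group, with black lines at the means of 3 arrays. Pfkp and Egln3 lie above all Allo/Y arrays in every other group, Slc2a3 is highest and Pfkfb4 lowest at day 28, and sample 8 of Tumor+Allo/Y lies below samples 7 and 9 in most panels.

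Isozymes of a step were compared as log2 ratios within each array, which cancel any shift of a whole array and show unequal change, not the relative amounts of the 2 transcripts. Of 11 planned pairs 8 were measured, and an exact permutation F test over the 4 groups was run on each, with adjustment over the 8 pairs. The ratio of Pfkp to Pfkm was 2.16 ± 0.60 in Tumor+Allo/Y (d28), 3.07 ± 0.57 in Tumor+Allo/Y, 2.53 ± 0.55 in Tumor and −0.89 ± 0.54 in Allo/Y (SD, n = 3 each, exact p = 0.00396, adjusted 0.0261). Against Pfkl, Pfkp shifted likewise, with Pfkl over Pfkp at −0.59 ± 0.34 in Tumor+Allo/Y and 2.82 ± 0.36 in Allo/Y (exact p = 0.00799, adjusted 0.0261). In both ratios Allo/Y did not overlap with any other group. Pfkl over Pfkm did not pass (exact p = 0.0636, adjusted 0.0727), though it did with the kept probes of each gene averaged (exact p = 0.0112, adjusted 0.0261) and without Tumor+Allo/Y sample 8 (adjusted 0.0418). Aldoa over Aldoc did not pass (exact p = 0.108).

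Pfkfb3 over Pfkfb4 was −4.76 ± 0.28 at day 28, −4.48 ± 0.65 in Tumor+Allo/Y, −5.06 ± 0.39 in Tumor and −5.75 ± 0.14 in Allo/Y (exact p = 0.0215, adjusted 0.0287). Egln3 over Egln1 was 0.64 ± 0.41, 1.06 ± 0.47, 0.56 ± 0.54 and −0.49 ± 0.10 in the same order (exact p = 0.0142, adjusted 0.0261), below 0 on all 3 Allo/Y arrays and above 0 on the other 9. With the kept probes of each gene averaged, this pair gave an exact p of 0.227. The transporter pair differed at day 28. Slc2a1 over Slc2a3 was 1.40 ± 0.49 in Tumor+Allo/Y (d28), below 2.77 ± 0.49 in Tumor+Allo/Y, 2.61 ± 0.47 in Tumor and 2.41 ± 0.23 in Allo/Y (exact p = 0.0163, adjusted 0.0261). Ldha over Ldhb also passed (exact p = 0.0151, adjusted 0.0261), but Ldhb was at background on 8 of 12 arrays, where the ratio is only a bound. In total 6 pairs passed, against 2 when any 1 Allo/Y array or Tumor+Allo/Y sample 9 was left out, and 0 without sample 7, where Pfkp over Pfkm had an exact p of 0.00818 (adjusted 0.0501). Ratios of other gene pairs were not tested, so no share of all pairs stands beside this count. Of single genes, 45.7% of all differed among the 4 groups by the limma F test. The phosphofructokinase ratios share genes, and each follows from the others, so they are not separate results.

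**Figure D4:**
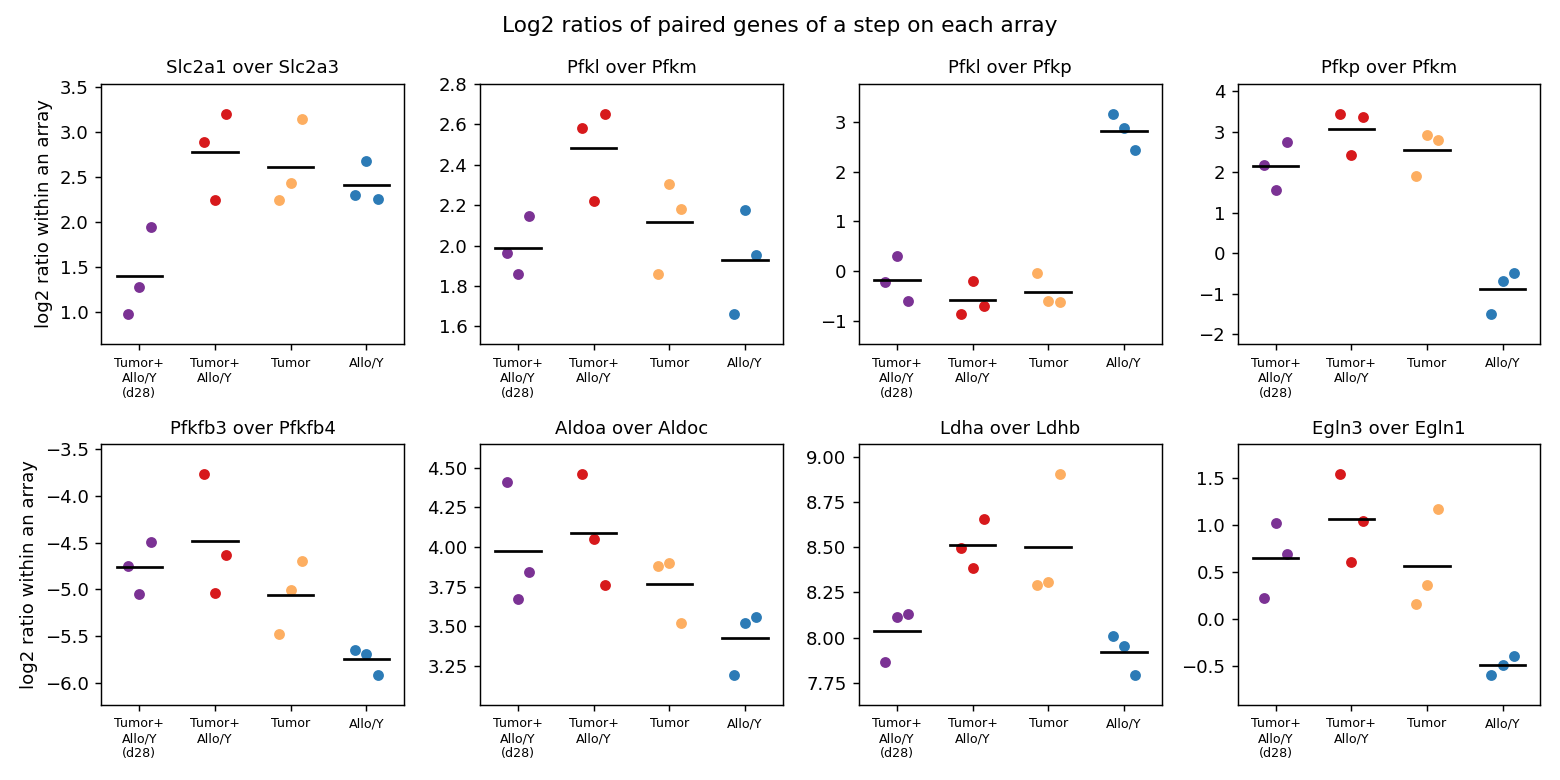
Log2 ratios of 8 pairs of genes within each array (vertical axes), by group, with points for arrays and black lines at the means of 3 arrays. Both ratios with Pfkp separate Allo/Y from the other groups, and Slc2a1 over Slc2a3 is lowest at day 28.

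Of 6 measured genes of the lower steps of glycolysis, from triose to pyruvate, 4 rose in Tumor+Allo/Y against Allo/Y and 2 did not pass. Of all genes 47.9% were called there, 20.6% higher. Gapdh, the dehydrogenase often used as a reference gene, had 13.00, 13.00 and 13.37 in Tumor+Allo/Y (d28), 13.62, 13.28 and 13.81 in Tumor+Allo/Y, 13.24, 13.32 and 13.97 in Tumor, and 12.33, 12.51 and 12.47 in Allo/Y. No Allo/Y array reached the lowest value of another group, and the rise in Tumor+Allo/Y was 1.13 ± 0.21 (SE, adjusted p = 0.002). Pgam1, the phosphoglycerate mutase, had 10.13, 9.10 and 10.33 in Tumor+Allo/Y, against 8.26, 8.49 and 8.59 in Allo/Y, and rose by 1.41 ± 0.42 (SE, adjusted p = 0.0189), a call lost without Tumor+Allo/Y sample 7 or 9 or Allo/Y sample 1 (adjusted p 0.062 to 0.0731). Pkm, whose pyruvate kinase gives off pyruvate at the last step, had 12.48, 12.28 and 12.82 in Tumor+Allo/Y (d28), 13.59, 12.91 and 13.68 in Tumor+Allo/Y, 12.77, 13.01 and 13.77 in Tumor, and 12.10, 12.15 and 12.00 in Allo/Y. It rose by 1.31 ± 0.27 (SE, adjusted p = 0.00364). The phosphoglycerate kinase gene Pgk1 rose by 0.85 ± 0.32 (SE, adjusted p = 0.0465). Tpi1, the triosephosphate isomerase, did not pass on the probe used (0.56 ± 0.28, adjusted p = 0.124), whereas one further probe of the 3 stood at 1.35, a call. Eno2, the enolase of neurons, had 7.66, 8.12 and 7.90 in Tumor+Allo/Y (d28), 6.77, 7.27 and 5.02 in Tumor+Allo/Y, 7.04, 6.67 and 5.17 in Tumor, and 7.09, 6.01 and 6.84 in Allo/Y. It was lowest on samples 9 and 6, where it was not above background.

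Of 4 measured genes of lactate and pyruvate handling 2 rose in Tumor+Allo/Y against Allo/Y, where 47.9% of all genes were called, 20.6% higher. Ldha, the dehydrogenase subunit that favours lactate, had 12.76, 12.87 and 13.27 in Tumor+Allo/Y (d28), 13.60, 13.31 and 13.85 in Tumor+Allo/Y, 13.38, 13.45 and 13.68 in Tumor, and 12.75, 12.62 and 12.64 in Allo/Y. All Tumor+Allo/Y and Tumor arrays of 1 week lay above all day 28 and Allo/Y arrays, and the rise in Tumor+Allo/Y was 0.92 ± 0.18 (SE, adjusted p = 0.00226). Pdk1, whose kinase inactivates pyruvate dehydrogenase, rose by 0.65 ± 0.24 (SE, adjusted p = 0.0449), while its other kept probe gave −0.11 and was not called. Slc16a3, the lactate exporter MCT4, had 4.49, 4.61 and 5.70 in Tumor+Allo/Y (d28), 6.69, 5.06 and 6.90 in Tumor+Allo/Y, 4.77, 5.02 and 7.34 in Tumor, and 4.49, 4.62 and 4.42 in Allo/Y. This probe was not well above background on any Allo/Y array, and its difference in Tumor+Allo/Y of 1.70 ± 0.67 (SE, adjusted p = 0.0577) did not pass. A second kept probe, above background on 8 arrays, gave 0.30 (adjusted p = 0.199), so the probes disagree on the size of the difference. Ldhb was above background on 1 Tumor+Allo/Y array and on no Allo/Y array. Its difference did not pass (0.32 ± 0.15, adjusted p = 0.0922), and values at background do not give its size.

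Of the 3 oxygen-sensing genes Hif1a and Egln3 rose in Tumor+Allo/Y against Allo/Y and Egln1 did not pass, beside 20.6% of all genes called higher. Hif1a, the regulated subunit of HIF-1, had 8.69, 8.18 and 9.41 in Tumor+Allo/Y (d28), 9.14, 8.21 and 9.41 in Tumor+Allo/Y, 7.44, 8.63 and 9.78 in Tumor, and 7.27, 6.96 and 7.67 in Allo/Y. Its rise in Tumor+Allo/Y was 1.62 ± 0.54 (SE, adjusted p = 0.0319), and the adjusted p was 0.0566 with no detection filter and 0.0777 to 0.105 without Tumor+Allo/Y sample 7 or 9 or Allo/Y sample 1 or 2. Egln3 had 6.83, 7.09 and 7.50 in Tumor+Allo/Y (d28), 7.99, 6.86 and 8.04 in Tumor+Allo/Y, 6.70, 7.00 and 8.21 in Tumor, and 5.26, 5.60 and 5.63 in Allo/Y. Every array outside Allo/Y was above the 3 Allo/Y arrays. A second Egln3 probe gave 0.25 in the comparison of Tumor+Allo/Y with Allo/Y and was not called. Egln1, the prolyl hydroxylase PHD2, gave 0.58 ± 0.24 (SE, adjusted p = 0.0664) there, without overlap.

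All 4 measured hypoxia targets of the set rose in Tumor+Allo/Y against Allo/Y, where 20.6% of all genes were called higher. Hypoxia pathway genes outside the set went both ways. Of 25 measured, 6 were called higher and 7 lower, the latter including P4ha2 (−1.72 ± 0.50), Adm (−1.63 ± 0.21) and Kdm3a (−0.91 ± 0.17). Ankrd37, an ankyrin repeat gene induced by hypoxia, had 6.94, 7.23 and 7.83 in Tumor+Allo/Y (d28), 8.73, 7.23 and 8.64 in Tumor+Allo/Y, 7.37, 7.88 and 8.84 in Tumor, and 6.46, 6.55 and 6.69 in Allo/Y, and rose by 1.63 ± 0.44 (SE, adjusted p = 0.0128, against 0.0562 without Tumor+Allo/Y sample 7 and 0.0508 without sample 9). P4ha1, a subunit of the collagen prolyl hydroxylase, had 7.30, 7.21 and 7.49 in Tumor+Allo/Y (d28), 8.29, 7.65 and 8.08 in Tumor+Allo/Y, 7.20, 7.06 and 7.92 in Tumor, and 6.74, 6.30 and 6.89 in Allo/Y, and rose by 1.36 ± 0.25 (SE, adjusted p = 0.0019). Both genes were lowest in Allo/Y on all 3 arrays. Vegfa had 10.93, 10.24 and 11.14 in Tumor+Allo/Y, against 9.68, 9.32 and 9.76 in Allo/Y, and rose by 1.18 ± 0.31 (SE, adjusted p = 0.0108). The stress-response gene Ndrg1 rose by 1.22 ± 0.37 (SE, adjusted p = 0.0203). For P4ha1, Vegfa and Ndrg1 a second probe gave 1.51, 1.24 and 1.38 and was called each time. Over all 16 genes with several kept probes, 14 had the same sign on every probe in this comparison, but 9 had the same call. The calls differed for Egln3, Hif1a, Pdk1, Pgam1, Pgk1, Pkm and Tpi1. Second probes that did not pass gave 0.46 for Hif1a (adjusted p = 0.0921), 1.30 for Pgam1 (0.0667), 1.07 for Pkm (0.0935) and 0.37 for Pgk1 (0.125).

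The values were also set on a scale where each array has the same mean of the 20 leukocyte genes. Relative to them Pfkp was still higher in Tumor+Allo/Y than in Allo/Y, by 1.46 ± 0.29 (SE, adjusted p = 0.000497), Egln3 stood at 0.04 ± 0.29 (adjusted p = 0.908), and 22 of the 27 genes were called lower. This scale lowers every gene alike, putting the median of all genes at −2.14, and calls 1.12% of all genes higher and 92.7% lower. The median of the 27 genes was −1.22. Hif1a (−0.48), Ankrd37 (−0.47) and Slc16a3 (−0.40) did not pass in either direction, and Ldha stood at −1.18.

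Tumor transfer alone against Allo/Y alone compares the single treatments at 1 week, with the same Allo/Y arrays. Of the 27 genes 10 rose, none fell and 17 did not pass, where 40.2% of all genes were called, 18.2% higher and 22% lower, and the groups did not overlap in 17, against 57.1% of all genes. The median change was 0.72, and −0.02 for all genes. Pfkp rose by 3.28 ± 0.40 (SE, adjusted p = 0.00033), Egln3 by 1.81 ± 0.41 (SE, adjusted p = 0.00716) and Ankrd37 by 1.46 ± 0.44 (SE, adjusted p = 0.0255). Among the enzymes Pkm rose by 1.10 ± 0.27 (SE, adjusted p = 0.0114), Gapdh by 1.07 ± 0.21 (SE, adjusted p = 0.00378), Ldha by 0.83 ± 0.18 (SE, adjusted p = 0.00507) and Aldoa by 0.74 ± 0.24 (SE, adjusted p = 0.0348). The other calls were Vegfa at 1.06 ± 0.31 (SE, adjusted p = 0.0214), P4ha1 at 0.75 ± 0.25 (SE, adjusted p = 0.0373) and Egln1 at 0.75 ± 0.24 (SE, adjusted p = 0.0301). The other kept Egln1 probes gave 0.57 (adjusted p = 0.168) and 0.29 (0.342), and a second Egln3 probe gave 0.63 (0.289), none called. Conversely, a further probe each of Pgk1 (0.56, adjusted p = 0.037) and Tpi1 (1.57, 0.00306) passed where the probe used did not. Neither glucose transporter gene of the set passed, with Slc2a3 at 0.46 ± 0.17 (SE, adjusted p = 0.058) and Slc2a1 at 0.65 ± 0.28 (SE, adjusted p = 0.0885). Relative to the leukocyte genes Pfkp was called higher (1.30 ± 0.29, adjusted p = 0.00118) and 22 genes lower, where 0.952% of all genes were higher and 92.8% lower. Tumor sample 6 had the highest value of its group in 25 of the 27 genes, a rank not counted over all genes. Of all arrays it had the highest leukocyte (11.51), macrophage (11.985) and neutrophil (9.58) means and the lowest epithelial mean (7.29). The part of these lists was not tested. Without sample 6 the number called of the 27 was 5, beside 1731 higher and 2003 lower of all genes, against 2182 and 2633 with all arrays. The number was also 5 without Allo/Y sample 1 (1496 and 1500 of all genes) or 2 (1661 and 1761). P4ha1 lost its call with no detection filter (adjusted p = 0.0564), and with array quality weights Ankrd37, Vegfa and P4ha1 lost theirs (adjusted p = 0.064, 0.138 and 0.106). Without single arrays the call of Ankrd37 was lost for Tumor sample 6 and each Allo/Y array, that of Vegfa for Tumor samples 5 and 6 and Allo/Y samples 1 and 2, and that of P4ha1 for Tumor+Allo/Y (d28) sample 10, Tumor sample 6 and Allo/Y samples 1 and 2.

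Tumor+Allo/Y against Tumor at 1 week asks what adding the Allo/Y transfer changed. No gene was called by limma, neither among the 27 nor among all 11971 (0%), and 1 of the 27 and 451 of all genes had an unadjusted p under 0.05, while no adjusted p was below 0.99975. None of the 27 separated the groups without overlap, against 6.64% of all genes. The largest difference on the probes used, that of P4ha1, was 0.61 ± 0.25 (SE), and Pfkp gave 0.29 ± 0.40, Egln3 0.33 ± 0.41, Ldha 0.08 ± 0.18, Gapdh 0.06 ± 0.21 and Slc2a3 0.03 ± 0.17. The other P4ha1 probe gave 0.15. Of the 16 genes with several kept probes, 7 had probes of unlike sign in this comparison. The median SD within Tumor+Allo/Y was 0.42 for the 27 genes and 0.25 for all genes, in Tumor 0.47 and 0.29, and in Allo/Y 0.12 and 0.13. Sample 8 was lowest in Tumor+Allo/Y for 24 of the 27 genes and sample 9 highest for 21. In Tumor, sample 4 was lowest for 20 genes. Such ranks were not counted over all genes. Without both Tumor sample 6 and Tumor+Allo/Y sample 8, which lay apart from the other arrays of their groups, 12 of the 27 genes were called higher and none lower, among 937 higher and 1679 lower of all genes. That fit was chosen after the values were seen, and it removes from each group the array that lay towards the other group.

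Change over time was asked with Tumor+Allo/Y (d28) against Tumor+Allo/Y at 1 week. None of the 27 genes was called, while 2.05% of all genes were, 1.7% higher and 0.351% lower at day 28, and 11 of the 27 and 2427 of all genes had an unadjusted p under 0.05. The values were lower at day 28 for 25 of the 27 genes, with a median of −0.53, against −0.0012 for all genes. The groups did not overlap in 8 of the 27 and in 23.7% of all genes. The 8 included Slc2a3 and Eno2, which were higher, and Pfkfb3, and among the rest Ldha gave −0.62 ± 0.18 (SE, adjusted p = 0.095), Pkm −0.87 ± 0.27 (SE, adjusted p = 0.12), P4ha1 −0.67 ± 0.25 (SE, adjusted p = 0.178), Pfkl −0.58 ± 0.21 (SE, adjusted p = 0.164) and Pfkfb4 −0.53 ± 0.15 (SE, adjusted p = 0.095). Slc2a3 was higher instead, at 0.75 ± 0.17 (SE, adjusted p = 0.055), and so was Eno2, at 1.54 ± 0.60 (SE, adjusted p = 0.191), neither passing. Pfkp gave −1.0 ± 0.40 (SE, adjusted p = 0.204). Relative to the leukocyte genes none of the 27 was called either, where 0.125% of all genes were higher and 0.0668% lower. Leaving out or down-weighting arrays moved the count. With array quality weights 2 of the 27 genes were called higher and 18 lower at day 28, among 1390 and 1477 of all genes. Without both Tumor sample 6 and Tumor+Allo/Y sample 8 the numbers were 2 and 19, among 1645 and 1463 of all genes. In 4 analyses that kept every array and its weight, among them the authors' normalized table, 1 gene was called, higher at day 28. The neutrophil mean stood at 8.02 ± 0.18 at day 28, against 8.92 ± 0.57 at 1 week, the macrophage mean at 10.99 ± 0.25, against 11.59 ± 0.26, and the mean of 4 proliferation genes at 8.42 ± 0.66, against 9.23 ± 0.15. The part of these lists in the result was not tested.

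Day 28 after the combined transfer was also set against Allo/Y at 1 week, a comparison that differs in both transfer and time and uses the same Allo/Y arrays. In it 5 of the 27 genes rose, 2 fell and 20 did not pass, where 43.3% of all genes were called, 18.9% higher and 24.4% lower, and the groups did not overlap in 18, against 64.7% of all genes. The count of 7 stood beside 2258 higher and 2925 lower of all genes. It was 4 without Tumor+Allo/Y (d28) sample 12 (1845 and 2197 of all genes) or Allo/Y sample 1 (1749 and 2097) or 3 (1810 and 2207). When these groups alone were fitted it was 16 (13 higher, 3 lower), beside 2890 and 3750 of all genes. With array weights it was 17 (14 higher, 3 lower), beside 3247 and 4175. The median change was 0.42, and −0.05 for all genes. The genes that rose were Pfkp (2.57 ± 0.40, adjusted p = 0.000708), Egln3 (1.64 ± 0.41, adjusted p = 0.00877), Slc2a3, P4ha1 (0.69 ± 0.25, adjusted p = 0.0473) and Gapdh (0.69 ± 0.21, adjusted p = 0.024). Pfkfb4 had 9.90, 10.10 and 9.87 in Tumor+Allo/Y (d28), 10.21, 10.54 and 10.69 in Tumor+Allo/Y, 10.57, 10.33 and 10.70 in Tumor, and 10.74, 10.80 and 10.83 in Allo/Y. It fell by 0.84 ± 0.15 (SE, adjusted p = 0.00154), and Pfkm fell by 0.49 ± 0.18 (adjusted p = 0.046). Ldha (0.30 ± 0.18, adjusted p = 0.19) and Pkm (0.44 ± 0.27, adjusted p = 0.215) did not pass. The call of Egln3 was lost when its kept probes were averaged (0.81, adjusted p = 0.116), and that of Pfkm likewise (−0.28, adjusted p = 0.317). P4ha1 and Pfkm had adjusted p-values of 0.0704 and 0.0539 with no detection filter, and P4ha1 0.0619 with no background correction, 0.0565 with the authors' normalized table and 0.0527 with the variance trend and robust fit. Each also lost its call without any of 8 single arrays, including all 3 of Allo/Y. Gapdh lost its call without Tumor+Allo/Y (d28) sample 12 or Allo/Y sample 1 or 3 (adjusted p 0.0556 to 0.0886). Relative to the leukocyte genes 0 of the 27 were higher and 23 lower, and Pfkp stood at 0.51 ± 0.29 (adjusted p = 0.114), where 1.14% of all genes were higher and 92.7% lower.

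Other genes of these pathways were counted in 4 lists. In Tumor+Allo/Y against Allo/Y 3 of 14 other genes of glycolysis and glucose uptake rose and 5 fell, 2 of 9 genes of pyruvate entry rose and 4 fell, 1 of 6 genes of the pentose phosphate pathway rose and 2 fell, and 6 of 25 other hypoxia pathway genes rose and 7 fell, where 20.6% of all genes rose and 27.3% fell. The largest rises were those of Hk3, a hexokinase of myeloid cells (4.50 ± 0.73, adjusted p = 0.00101), Slc2a6, a hexose transporter of leukocytes (3.64 ± 0.39, adjusted p = 0.00012), and Plin2, which coats lipid droplets (2.56 ± 0.40, adjusted p = 0.000841). Hk3 had 9.75, 9.53 and 11.23 in Tumor+Allo/Y (d28), 12.47, 10.79 and 12.77 in Tumor+Allo/Y, 10.27, 11.35 and 13.16 in Tumor, and 7.31, 7.76 and 7.47 in Allo/Y, with no overlap between Allo/Y and the rest. Genes that fell most were Ppp1r3c, a glycogen-targeting phosphatase subunit (−2.24 ± 0.64, adjusted p = 0.016), Pdk4, a pyruvate dehydrogenase kinase (−2.05 ± 0.35, adjusted p = 0.00123), and Pfkfb2 (−1.95 ± 0.30, adjusted p = 0.000769), of the same family as Pfkfb3. In Tumor against Allo/Y the 4 lists had 4 of 14, 1 of 9, 1 of 6 and 5 of 25 genes higher and 4, 4, 1 and 8 lower, beside 18.2% and 22% of all genes, with Hk3 at 4.08 ± 0.73, Slc2a6 at 3.32 ± 0.39, Plin2 at 2.18 ± 0.40, Ppp1r3c at −2.15 ± 0.64, Pdk4 at −1.97 ± 0.35 and Adm, the vasodilator adrenomedullin, at −1.67 ± 0.21. At day 28 against Allo/Y they had 3, 1, 1 and 6 higher and 4, 3, 2 and 9 lower, beside 18.9% and 24.4% of all genes, led by Hk3 (2.66 ± 0.73), Slc2a6 (2.57 ± 0.39), the transcription factor gene Bhlhe40 (1.63 ± 0.22), Ppp1r3c (−2.26 ± 0.64), Pfkfb2 (−1.73 ± 0.30) and Fbp2, a fructose bisphosphatase (−1.57 ± 0.24). Over time 1 of these genes was called, Lox, a collagen cross-linking enzyme, at 1.11 ± 0.22 (SE, adjusted p = 0.0398) in Tumor+Allo/Y (d28) against Tumor+Allo/Y, and against Tumor none was.

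By the F test across the 4 groups 12 of the 27 genes and 45.7% of all genes differed, and 15 of the 27 did not pass. With 1 array left out the count ran from 8 to 19, the highest without Tumor+Allo/Y sample 8, and with array weights it was 25. The share of all genes called by the F test in those fits is not given here, so these counts are not read as particular to the 27.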

How the data were processed

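CD45+ cells from 12 mice were measured on Illumina BeadChips. The deposited table holds, per the file headers, a probe intensity and a detection p-value for each of 45281 probes, and the submitters' processing notes name GenomeStudio without its settings. A second deposited table held intensity values normalized by the authors, with the method not given in the sources used here, and served as an alternative. With limma 3.58.1 in R 4.3.3, background was corrected by neqc, with the negative-control level inferred from the detection p-values, an offset of 16 and quantile normalization. Of all probes 23054 reached a detection p below 0.05 on 3 or more arrays, and the brightest of the 19235 with 1 gene symbol represented each of 11971 genes. One mean per group was fitted with eBayes on log2 signal (8 residual degrees of freedom), with Benjamini-Hochberg adjustment. The number of arrays limits the precision. Isozyme ratios were tested in Python 3.11.15 by exact permutation. The code was tested on simulated data. The genes, the lists and the tests were chosen with earlier results of these data known. Full statistics were planned for the 6 largest rises and falls among called genes without overlap and for the gene of each role with the smallest F test p, and further genes were added for their role. Of other pathway genes the 3 largest called rises and falls are named. Background correction, normalization, filters, probe choice, array weights and left-out arrays were varied. A BeadChip block was not fitted because the files used give no slide. The limma p-values set a difference between groups against the spread of arrays within groups, which eBayes moderates over all genes. The exact p-values count regroupings of the arrays.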

Additional observations from a re-analysis of the deposited data

How the results depend on the processing

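Most results kept their side of the threshold: of the values for single genes and ratios, 405 under other settings and 474 with 1 array left out stayed on the same side, while 20 and 72 lost the call and 20 and 6 gained it. A further 20 under other settings changed sign, all with the leukocyte genes set equal. Sign was not compared for values called in neither fit. With the leukocyte genes set equal, 23 genes were called against Allo/Y for Tumor+Allo/Y (1 higher, 22 lower), 23 for Tumor, 23 for Tumor+Allo/Y (d28), and 24 by the F test. This setting subtracts the same amount from every gene, so it turned the sign of changes below the leukocyte shift. In Tumor+Allo/Y against Allo/Y they became −0.47 for Ankrd37, −0.48 for Hif1a, −0.69 for Pgam1, −0.74 for P4ha1, −1.61 for Slc2a3, −1.18 for Ldha and −0.97 for Gapdh. In Tumor against Allo/Y they became −0.17 for Egln3, −0.52 for Ankrd37, −0.88 for Pkm, −0.90 for Gapdh, −0.91 for Vegfa, −1.52 for Slc2a3, −1.23 for P4ha1 and −1.14 for Ldha. In Tumor+Allo/Y (d28) against Allo/Y they became −0.42 for Egln3, −0.82 for Slc2a3, −1.37 for P4ha1, −1.37 for Gapdh and −1.76 for Ldha. With array weights Tumor had 6 genes called against Allo/Y, beside 1661 higher and 1756 lower of all genes. Tumor+Allo/Y (d28) had 20 against Tumor+Allo/Y (1390 and 1477 of all genes) and 17 against Allo/Y (3247 and 4175), and the F test called 25. Fitting Tumor+Allo/Y (d28) and Allo/Y alone called 16, beside 2890 higher and 3750 lower of all genes. In Tumor+Allo/Y (d28) against Tumor+Allo/Y, 1 gene was called with no background correction, with the authors' normalized table, with the mean of kept probes and with a variance trend and robust fit. A fit without both Tumor sample 6 and Tumor+Allo/Y sample 8 was chosen after seeing the data. In it Tumor+Allo/Y had 21 genes called against Allo/Y and 12 against Tumor (937 higher and 1679 lower of all genes). Tumor had 8 against Allo/Y. Tumor+Allo/Y (d28) had 21 against Tumor+Allo/Y (1645 and 1463 of all genes) and 17 against Allo/Y (2945 and 3839), with 23 by the F test. The cause of these changes other than the scaling was not tested. With 1 array left out the counts ranged from 7 to 21 for Tumor+Allo/Y and from 5 to 14 for Tumor, both against Allo/Y, stayed at 0 for Tumor+Allo/Y against Tumor, and ranged from 0 to 3 and from 4 to 8 for Tumor+Allo/Y (d28) against Tumor+Allo/Y and against Allo/Y. They ranged from 8 to 19 by the F test and from 0 to 7 for isozyme pairs. Where a count here has no number of all genes in the same fit beside it, it is not read as particular to these genes. No paired analysis was possible because the groups share no replicate numbers. Probes of Slc16a3 and Ldhb near background limit what their changes show.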
